A study of Homo sapiens with 10 samples.

Results

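Glutathione is the main small thiol that cells use against oxidants, and its synthesis is controlled in large part by the transcription factor NRF2. The genes described here are the enzymes that make and recycle glutathione, the redox enzymes that serve as standard NRF2 targets, and NRF2 itself with its inhibitor. They are GCLC and GCLM, GSS, GSR, NQO1, HMOX1, TXNRD1, SRXN1, NFE2L2 and KEAP1, 10 genes of the 60554 listed. They were chosen by gene symbol, as a pathway named from its known roles, with results of these same libraries in view and with no threshold on a measured value. Their differences between groups are therefore given as a description, and the adjusted p-values beside them are not independent evidence about the pathway. All 10 were found by symbol, and 9 of them were among the 11640 genes tested. HMOX1 was left out by the minimum on abundance.

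The libraries came from Caco-2, a human colon carcinoma line that resembles absorptive enterocytes when grown as a sheet. All 10 libraries came from cells derived from 1 stable clone that carries the transcriptional repressor dCas9-KRAB, and all received a second lentivirus. In 5 libraries this virus carried the empty guide plasmid (gCtl), in 3 it carried the guide LHFPL3-AS2_g1 (g1) and in 2 the guide LHFPL3-AS2_g2 (g2), both directed at the long non-coding RNA LHFPL3-AS2. RNA was read by QuantSeq, which makes 1 tag near the 3′ end of each polyadenylated transcript, and nothing in the labels says whether replicates were separate cultures, so p-values measure the spread between these libraries. The comparisons ask how the glutathione and NRF2 genes stood in cells with a guide against gCtl, and whether both guides gave the same values.

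Totals ran from 3838803 to 8730468 estimated counts per library. The targeted RNA was not lower where a guide was present. LHFPL3-AS2 stood at 0.84 to 3.73 RPM (reads per 1000000) in gCtl, 2.03 to 3.95 with g1, and 2.16 and 6.01 with g2, which gave a log2 difference of 0.47 on the log2(RPM + 1) scale (two-sided exact permutation test, p = 0.19). The level of the target therefore does not bear out the labels, and every direction below rests on the labels alone. The g1 and g2 libraries are called the libraries labelled g1 and g2, and their 5 libraries together the libraries labelled knockdown. Intestinal epithelial markers were present throughout, among them EPCAM at 670 to 872 RPM and VIL1 at 122 to 187 RPM. KRT20, a marker of mature enterocytes, was low, at 1.08 to 4.22 RPM in gCtl, 1.94 to 4.01 with g1, and 8.97 and 9.97 with g2. CDH17 was also above gCtl with g2, at 76.9 to 114 RPM in gCtl, 87.8 to 120 with g1, and 174 and 123 with g2. KRT18 was below it, at 316 to 677 RPM in gCtl, 267 to 491 with g1, and 248 and 279 with g2. The part of these differences in the g2 results below was not tested. Of 5 markers of other cell types, PTPRC and COL3A1 reached 0 RPM in at least 1 library. The summed level of the 5 was 5.87 to 11.8 RPM in gCtl, 12.7 to 19.0 with g1 and 5.13 to 10.3 with g2, and their part in the results was not tested. In a bulk library, fewer cells that hold a transcript and less of it per cell cannot be told apart.

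As background, glutathione is built in a pair of steps. Glutamate-cysteine ligase, made of the catalytic subunit GCLC and the modifier subunit GCLM, joins glutamate and cysteine and sets the rate of the pathway. Glutathione synthetase, GSS, then adds glycine, and glutathione reductase, GSR, returns oxidized glutathione to its reduced form at the cost of NADPH. NRF2, encoded by NFE2L2, is held in the cytoplasm and sent to the proteasome by KEAP1. Oxidants and electrophiles release it, and it then binds antioxidant response elements as a dimer with a small MAF protein.

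The regions just before the starts of 3 members are shown because these genes are textbook NRF2 targets. The sequences are from RefSeq on GRCh38.p14, written 5′ to 3′ along the strand of the gene, with capitals for matches to TGACNNNGC, the core letters of the antioxidant response element, on either strand. The stretch of GCLC is chr6:53545130-53545351 on the minus strand, that of GCLM is chr1:93909456-93909680 on the minus strand, and that of TXNRD1 is chr12:104215529-104215779 on the plus strand. Bases that the annotation places in exons were left out, apart from those that complete a match.
GCLC: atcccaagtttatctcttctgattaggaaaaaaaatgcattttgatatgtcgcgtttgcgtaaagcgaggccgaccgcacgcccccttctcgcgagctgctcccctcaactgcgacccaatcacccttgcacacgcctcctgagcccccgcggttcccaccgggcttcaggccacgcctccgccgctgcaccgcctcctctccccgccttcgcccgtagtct
GCLM: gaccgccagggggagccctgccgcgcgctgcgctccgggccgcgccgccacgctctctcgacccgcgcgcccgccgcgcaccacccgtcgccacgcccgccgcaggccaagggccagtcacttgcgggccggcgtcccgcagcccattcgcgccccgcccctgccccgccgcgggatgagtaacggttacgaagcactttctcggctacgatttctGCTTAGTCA
TXNRD1: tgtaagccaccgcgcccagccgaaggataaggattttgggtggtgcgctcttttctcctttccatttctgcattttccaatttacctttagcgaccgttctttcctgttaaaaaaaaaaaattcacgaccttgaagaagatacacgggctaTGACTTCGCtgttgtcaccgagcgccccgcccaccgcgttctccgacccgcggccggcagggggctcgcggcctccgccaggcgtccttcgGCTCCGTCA

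Windows of 300 bases, from 250 before to 50 after a start, were in the table for 7 of the 10 members, in 10 windows. The match was found in 4 of these 10 windows, which belong to GCLM, TXNRD1 and KEAP1, and in 13.3% of all 35116 windows. In GCLM the match lay from base -34 to base -26 relative to the start, on the opposite strand, with the letters TGACTAAGC. TXNRD1 held TGACTTCGC from base -99 to base -91 and, on the opposite strand, TGACGGAGC from base -8 to base 1. The KEAP1 window with matches held TGACACGGC and TGACTAAGC, and a second TXNRD1 window held TGACAAAGC. No match overlapped the AP-1 letters TGACTCA or TGAGTCA. The GCLC window held no match, which says only that these letters are absent from this window.

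GCLC rose in the libraries labelled knockdown and with each guide, and GSS fell with g2. NFE2L2 (0.46), TXNRD1 (0.44) and GSS (-0.47) differed by like amounts on the log2 scale in the libraries labelled knockdown, each under the 1.5-fold minimum. Across the 9 tested members, 1 was called higher (GCLC) and none lower in the libraries labelled knockdown, where called means an adjusted p of at most 0.05 by edgeR's quasi-likelihood test with Benjamini-Hochberg adjustment and a fold change of at least 1.5. Over all 11640 genes, 8.14% were called higher and 11% lower in that comparison. DESeq2 called the same single member, and 4 of the 9 had an unadjusted edgeR p under 0.05. With g1, 1 member was called higher and none lower, beside 6.81% and 9.91% of all genes. With g2, 1 was called higher and 1 lower (GSS), beside 10.7% and 13%. The median log2 fold change of the 9 was 0.25 for knockdown, -0.01 for g1 and 0.31 for g2, against 0.02, 0.01 and -0.00172 over all tested genes. Members called were thus about as frequent as called genes in general. With no minimum on the fold, 4 members (GCLC, GSS, TXNRD1 and NFE2L2) had an adjusted p of at most 0.05 in the knockdown comparison, beside 23.6% of all genes, 2 of 9 did so with g1 beside 20.1%, and 3 of 9 with g2 beside 26%. The g1, g2 and knockdown comparisons share their 5 gCtl libraries.

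**Figure D1:**
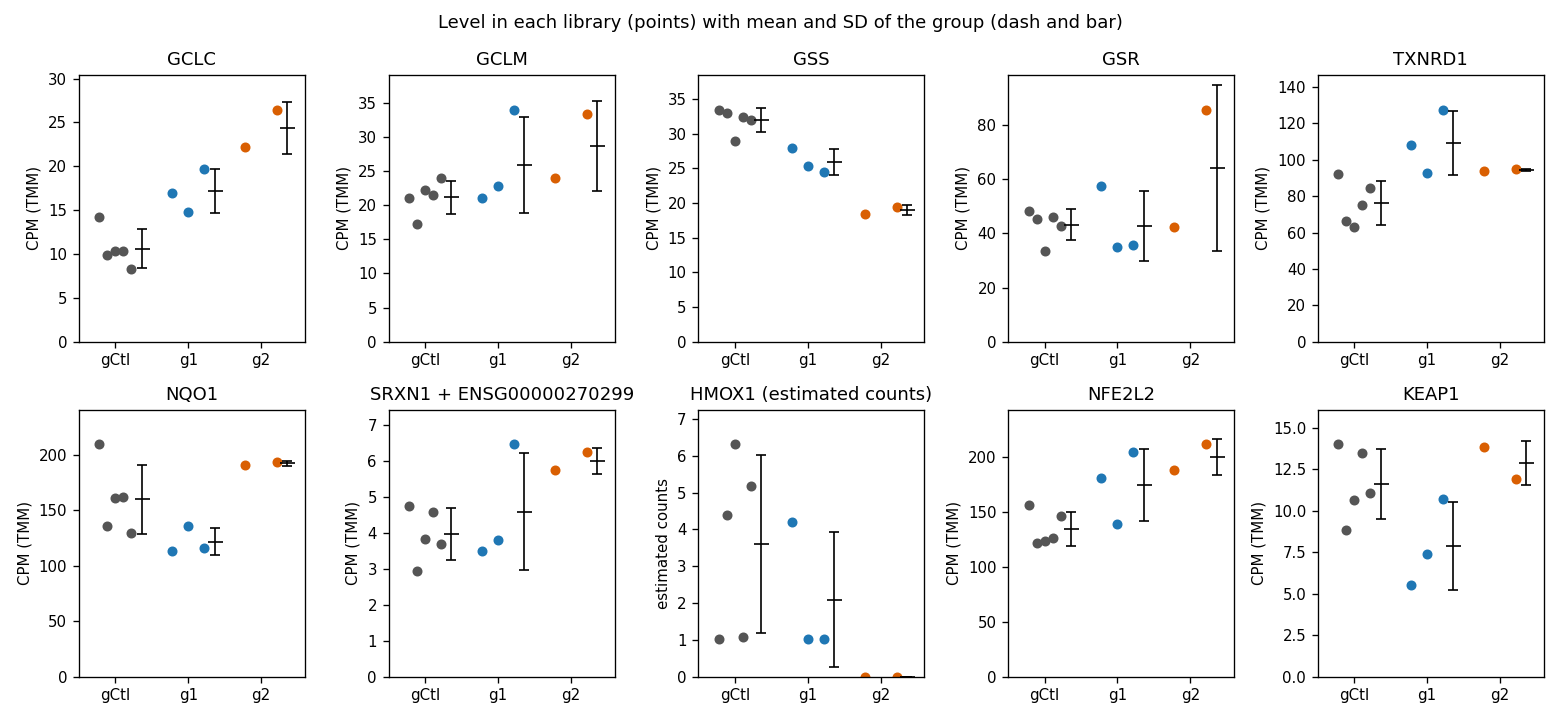
Levels of the 10 members in each of the 10 libraries (SRXN1 with the counts of ENSG00000270299 added), as CPM after TMM scaling (y axis from 0, estimated counts for HMOX1), with points for libraries, a dash for the group mean and a bar for the SD. GCLC rises from 8.27 to 14.2 in gCtl to 22.2 and 26.5 with g2, and GSS falls from 29.0 to 33.5 in gCtl to 18.5 and 19.5 with g2.

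GCLC (ENSG00000001084, chr6:53497341-53616970 on the minus strand) carries the active site of the rate-limiting ligase. Its levels, in CPM (counts per 1000000) scaled by TMM (edgeR's correction for library composition), were 14.2, 9.92, 10.3, 10.4 and 8.27 in the gCtl libraries. They were 17.0, 14.8 and 19.7 with g1, and 22.2 and 26.5 with g2. The 3 groups did not overlap, although the lowest g1 library lay close to the highest gCtl library. Of all genes tested, 1.25% had g1 wholly above gCtl and g2 wholly above g1, and 1.96% the reverse order, which was that of GSS. The difference for knockdown was 0.93 on the log2 scale (SE 0.20, edgeR quasi-likelihood adjusted p = 0.00486). The means were 10.6 ± 2.20 CPM in gCtl (SD, n = 5), 17.2 ± 2.49 with g1 (SD, n = 3) and 24.3 ± 2.99 with g2 (SD, n = 2). The difference was 0.71 with g1 (SE 0.20, adjusted p = 0.0228 by edgeR) and 1.21 with g2 (SE 0.22, adjusted p = 0.0014 by edgeR). The step from g1 to g2, 0.50, was not past the threshold (95% interval -0.02 to 1.01, adjusted p = 0.254 by edgeR). The g1 call was lost without gCtl replicate 2 or 4 or without g1 replicate 1 or 3.

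The reads of GCLC were spread over 10 of its 13 annotated transcripts. Of the counts assigned to the gene, 53.9% went to GCLC-005, a retained-intron transcript that ends at the same 3′ base as the main coding transcript GCLC-001, which received 8.30%. The share given to GCLC-001 was 2.16% in gCtl, 5.63% with g1 and 16.5% with g2. A 3′ tag cannot choose between transcripts with the same end, so the gene sum is the measured quantity here. On TPM, where counts are divided by the length of the transcript they were assigned to, GCLC was not called with g1 or g2.

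GCLM (ENSG00000023909, chr1:93885205-93909456 on the minus strand), the subunit that raises the ligase's affinity for glutamate, moved less. Its CPM values were 21.0, 17.3, 22.2, 21.4 and 23.9 in gCtl, 21.0, 22.8 and 34.0 with g1, and 24.03 and 33.3 with g2. One library of each guide stood well above gCtl, and the remaining 3 were within or just above the gCtl range. The knockdown difference was 0.36 on the log2 scale (SE 0.17, 95% interval -0.01 to 0.73, adjusted p = 0.144 by edgeR). The counts of GCLC divided by those of GCLM were 0.348 to 0.685 in gCtl, 0.579 to 0.809 with g1, and 0.795 and 0.924 with g2, so g2 lay above every gCtl library and g1 overlapped it.

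GSS (ENSG00000100983, chr20:34928433-34956027 on the minus strand), the enzyme of the last step, went the other way. Its CPM values were 33.5, 33.1, 29.0, 32.5 and 32.02 in gCtl, 28.0, 25.3 and 24.5 with g1, and 18.5 and 19.5 with g2. No library with a guide reached the lowest gCtl value, and g2 lay below g1. The knockdown difference was -0.47 (SE 0.15, adjusted p = 0.0325 by edgeR), under the 1.5-fold minimum. With g2 it was -0.75 (SE 0.17, adjusted p = 0.00553 by edgeR), which was called, and with g1 -0.30 (SE 0.15, adjusted p = 0.154 by edgeR). The difference of g2 from g1 was -0.45 (95% interval -0.84 to -0.06, adjusted p = 0.177 by edgeR). On CPM after TMM scaling, all 5 libraries labelled knockdown lay above gCtl for GCLC and TXNRD1, beside 7.13% of all genes. All 5 lay below it for GSS, beside 8.33% of all genes.

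The counts of GCLC divided by those of GSS set the member called higher against the one called lower with g2, so a wide contrast follows from the choice of the pair. The ratio was 0.26 to 0.428 in gCtl, 0.583 to 0.804 with g1, and 1.201 and 1.36 with g2. The 3 groups did not overlap. Being a ratio inside each library, it does not depend on how libraries are scaled.

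GSR (ENSG00000104687), which recycles oxidized glutathione, was decided by single libraries. Its CPM values were 48.5, 45.4, 33.5, 46.0 and 42.9 in gCtl, 57.7, 35.0 and 35.8 with g1, and 42.49 and 85.8 with g2. One g2 library stood far above the rest and the other inside the gCtl range. The g2 difference was 0.58 (SE 0.24, adjusted p = 0.0933 by edgeR). It was -0.01 without g2 replicate 2, and 0.99 and called without g2 replicate 1. The g1 difference was -0.01 (SE 0.22).

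**Figure D2:**
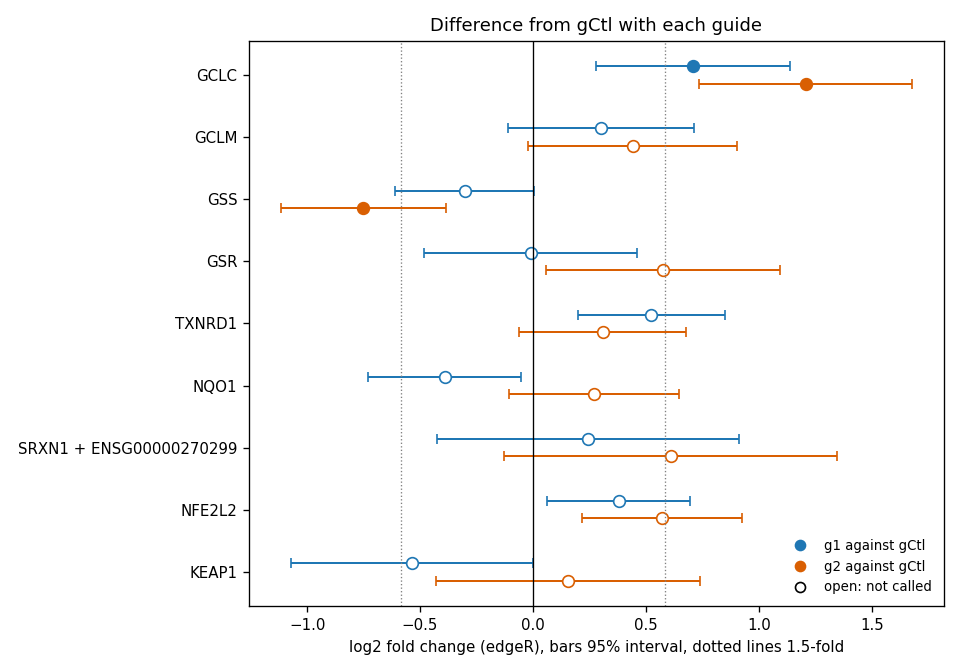
Log2 fold change of g1 (blue) and g2 (orange) against gCtl for 9 members, with bars for the 95% interval, filled points for called genes and dotted lines at 1.5-fold; SRXN1 is drawn with the counts of ENSG00000270299 added. GCLC is filled for both guides, GSS for g2 only, and NQO1 and KEAP1 have points on opposite sides of 0 for the 2 guides.

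TXNRD1 (ENSG00000198431, chr12:104215779-104350305 on the plus strand) is the cytosolic thioredoxin reductase, a selenoprotein that keeps thioredoxin reduced. Its CPM values were 92.0, 66.5, 62.8, 75.1 and 84.6 in gCtl, 108, 92.4 and 128 with g1, and 93.8 and 94.6 with g2. After TMM scaling every library labelled knockdown lay above every gCtl library, the lowest by less than 1 CPM. On RPM the groups overlapped, with gCtl replicate 1 (95.9) above g1 replicate 2 (94.2) and both g2 libraries (85.35 and 88.9). The knockdown difference was 0.44 (SE 0.14, adjusted p = 0.0369 by edgeR) and that of g1 0.52 (SE 0.15, adjusted p = 0.0246 by edgeR), both under the 1.5-fold minimum. With g2 it was 0.31 (SE 0.18, adjusted p = 0.207 by edgeR), and 0.02 to 0.44 in the alternatives. RPL18AP3 and EID3 lie within the same locus on the same strand and held at most 47.7 and 22 counts in a library.

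NQO1 (ENSG00000181019, chr16:69706996-69726951 on the minus strand), a quinone reductase and the most used reporter of NRF2 activity, differed in sign between the guides. Its CPM values were 209, 136, 162, 162 and 130 in gCtl, 114, 136 and 116 with g1, and 191 and 194 with g2. The g1 libraries lay at and below the low end of gCtl, and the g2 libraries in its upper part. The g1 difference was -0.39 (SE 0.16, adjusted p = 0.0964 by edgeR), the g2 difference 0.27 (SE 0.18, adjusted p = 0.276 by edgeR). The difference of g2 from g1 was 0.66 (95% interval 0.25 to 1.07, adjusted p = 0.0614 by edgeR). By edgeR no member was called between the guides, beside 4.97% of all genes called, and 4 of the 9 (GSS, GSR, NQO1 and KEAP1) had an unadjusted p under 0.05. DESeq2 called NQO1, and edgeR did so when gCtl replicate 1 or 5 was left out. An antisense transcript at the locus, CTD-2033A16.1, held 24.7 counts in gCtl replicate 5, 7.39 to 20.0 with g1 and 0 in the other libraries.

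HMOX1 (ENSG00000100292, chr22:35380361-35394214 on the plus strand), the inducible heme oxygenase and in many cells a strongly induced NRF2 target, was nearly silent. It held 1.02, 4.38, 6.31, 1.08 and 5.18 estimated counts in gCtl, 4.20, 1.02 and 1.03 with g1, and 0 in both g2 libraries. Only 4 libraries passed 3 counts. A count of 0 allows up to 0.489 and 0.41 RPM in the g2 libraries, taking 3 counts as the limit and covering counting error only, while gCtl stood at 0.265 to 1.14 RPM. Over the groups the counts summed to 17.96 in gCtl, 6.25 with g1 and 0 with g2. With no minimum on abundance, g2 against gCtl had an unadjusted p of 0.0109 and an adjusted p of 0.0564 by edgeR, which is not past the threshold, and no fold is given against a group at 0.

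SRXN1 (ENSG00000271303, chr20:646615-653370 on the minus strand), the sulfiredoxin that repairs overoxidized peroxiredoxins, appeared to switch on and off between replicates. Its counts were 19, 16, 22, 19 and 0 in gCtl, 0, 0 and 53 with g1, and 32 and 0 with g2. The gene ENSG00000270299 overlaps SRXN1 on the same strand and shares 2294 identical bases in 1 run with it, 85.0% of the length of SRXN1. Its counts were 0, 0, 0, 0 and 21 in gCtl, 21, 18 and 0.01 with g1, and 0 and 43 with g2. Each library gave its reads almost wholly to one or the other. Added together, the pair held 19, 16, 22, 19 and 21 counts in gCtl, 21, 18 and 53 with g1, and 32 and 43 with g2, with no library at 0. The knockdown difference was -0.33 for SRXN1 as listed and 0.40 for the sum (SE 0.28, adjusted p = 0.313 by edgeR), a step chosen after seeing the values. The sum differed by 0.24 with g1 (SE 0.32) and 0.61 with g2 (SE 0.35, adjusted p = 0.209 by edgeR).

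**Figure D3:**
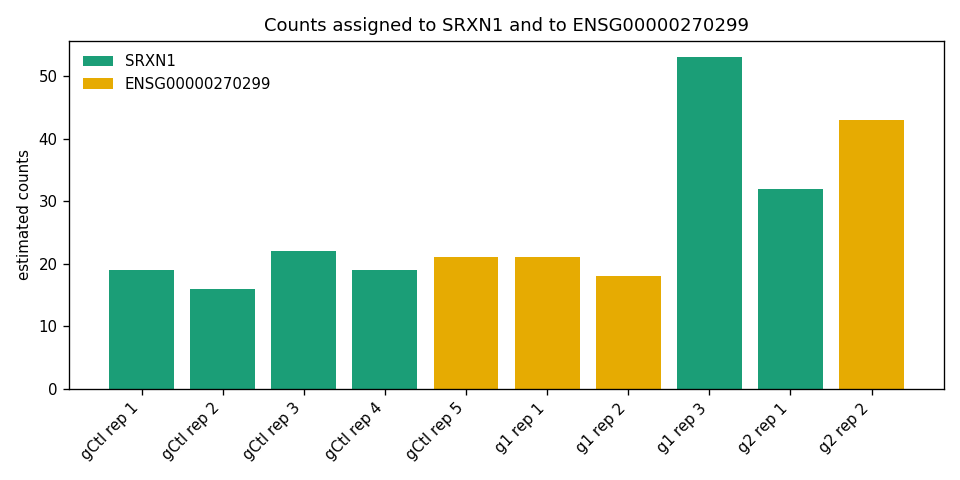
Estimated counts (y axis, from 0) assigned to SRXN1 (green) and to the overlapping ENSG00000270299 (yellow) in each of the 10 libraries, one bar per library. Each bar is nearly all of 1 colour, and the bars range from 16 to 53 counts.

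NFE2L2 (ENSG00000116044, chr2:177227595-177392697 on the minus strand) encodes NRF2, whose activity is set mainly by protein stability. The CPM values were 156, 121, 123, 126 and 146 in gCtl, 181, 139 and 204 with g1, and 188 and 211 with g2. Both g2 libraries lay above gCtl, and 1 g1 library lay inside it. The knockdown difference was 0.46 (SE 0.14, adjusted p = 0.0272 by edgeR), under the 1.5-fold minimum. With g2 it was 0.57 (SE 0.17, adjusted p = 0.0208 by edgeR), just under that minimum, and with g1 0.38 (SE 0.15, adjusted p = 0.0838 by edgeR). Of its reads, 46.5% were assigned to NFE2L2-011, a retained-intron transcript of 521 bases. This share was 40.83% in gCtl, 53.07% with g1 and 45.02% with g2. NFE2L2-011 ends at base 177233879, and the coding transcript NFE2L2-008 at base 177230308. The gene sum thus mixes retained-intron and coding transcripts in shares that differ between groups, and the coding transcripts alone were not tested. AGPS overlaps the locus on the opposite strand with 213 to 602 counts, and whether counting used strand is not given in the sources used here.

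KEAP1 (ENSG00000079999, chr19:10486120-10503741 on the minus strand), the sensor that presents NRF2 to the CUL3 ubiquitin ligase, was lower in some g1 libraries. In CPM it stood at 13.99, 8.81, 10.6, 13.5 and 11.1 in gCtl, 5.50, 7.39 and 10.7 with g1, and 13.8 and 11.9 with g2. Of the g1 libraries, 2 lay below gCtl, and g2 lay within it. The g1 difference was -0.53 (SE 0.25, adjusted p = 0.149 by edgeR) and the g2 difference 0.15 (SE 0.28). The counts of NFE2L2 divided by those of KEAP1 were 9.33 to 13.7 in gCtl, 18.8 to 32.7 with g1, and 13.7 and 17.6 with g2, so g1 lay above gCtl and the lower g2 library at its edge.

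The profile over the 10 libraries most like that of each member, by the root-mean-square difference of centred log2(CPM + 1) values, was GCNT3 for GCLC (0.128), AAK1 for GCLM (0.096), LRRC58 for GSS (0.0853), PROSC for GSR (0.164) and SEPT2 for NQO1 (0.118). It was FOXN2 for TXNRD1 (0.0973), ETS2 for NFE2L2 (0.0844) and C16orf70 for KEAP1 (0.135). For SRXN1 as listed the nearest gene, TMEM150A, was at 0.636, far outside the range of the others.

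The genes around the members were counted in lists drawn up with earlier results of these libraries known. Some genes, among them PRDX1, GPX2, SLC7A11 and FTL, stand in several lists, so the counts are not of separate sets of genes. Their counts in the knockdown comparison stand beside 8.14% of all genes called higher and 11% called lower. Of the regulators of NRF2, 2 of 17 tested genes were called higher and 2 lower in the libraries labelled knockdown, with a median of 0.06. MAFF, a small MAF partner, rose by 1.12 (SE 0.22), and PALB2, a DNA repair protein that also binds KEAP1, rose by 0.69 (SE 0.17). PALB2 was called with g1 (0.82) and not with g2 (0.45, adjusted p = 0.108 by edgeR). MAFK, another small MAF, fell from 9.72 ± 3.34 CPM in gCtl (SD, n = 5) to 3.99 ± 0.72 with g1 (SD, n = 3) and 3.63 ± 0.20 with g2 (SD, n = 2), a change of -1.32. DPP3, a peptidase that binds KEAP1, was at -1.199 (adjusted p = 0.0305 by edgeR) and lost the call in 10 of 25 alternatives. It was called with g1 (-1.695) and not with g2 (-0.67, adjusted p = 0.265 by edgeR). CUL3 (-0.13), BACH1 (0.47) and SQSTM1 (0.13) were in the list and not called in the knockdown comparison. BACH1 had an adjusted p of 0.0369 by edgeR there, with a fold under the 1.5-fold minimum. It was called with g1 (0.60, adjusted p = 0.0141 by edgeR) and not with g2 (0.25, adjusted p = 0.335 by edgeR).

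Of 27 other NRF2 targets, 5 were called higher and 7 lower, with a median of -0.03. Without gCtl replicate 5 the counts were 3 and 6, and with library totals alone 3 and 7. AKR1C1, a steroid and aldehyde reductase, stood at 20.0 to 39.2 CPM in gCtl, 21.7 to 28.8 with g1, and 127 and 192 with g2. Its g2 difference was 2.51 (adjusted p = 5.3e-06 by edgeR), its g1 difference -0.18, and the guides differed by 2.69 (adjusted p = 0.000108 by edgeR). Its call in the knockdown comparison held in 9 of 25 alternatives. Reads may be split with the near-identical AKR1C2, and the sum of both was 25.1 to 47.2 RPM in gCtl, 24.7 to 35.3 with g1, and 131 and 221 with g2. ABCC2, the apical exporter of glutathione conjugates, rose by 1.14 (SE 0.23). It was 56.37 to 96.22 CPM in gCtl, 135.5 to 240.3 with g1, and 96.1 and 180.2 with g2, so g2 replicate 1 lay inside gCtl. FTL, the ferritin light chain, fell by 1.52 on the log2 scale (SE 0.25).

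Among 35 genes of glutathione use and turnover, 4 were called higher and 12 lower, with a median of -0.11. GSTA1, the alpha-class glutathione transferase of enterocytes and hepatocytes, went from 14.8 to 22.7 CPM in gCtl to 107 to 141 with g1 and 75.3 and 96.5 with g2, a difference of 2.57 (SE 0.18, adjusted p = 1.5e-06 by edgeR). Its near-identical copy GSTA2 held 33.3 to 47.1 RPM in gCtl and 17.9 to 51.0 RPM in the libraries labelled knockdown, and the sum of both was 48.9 to 70.9 RPM in gCtl and 119 to 187 RPM in those libraries. GSTZ1, of tyrosine breakdown, rose by 0.96 (SE 0.21). It was 13.49 to 24.63 CPM in gCtl, 38.65 to 41.15 with g1, and 21.51 and 47.39 with g2, so g2 replicate 1 lay inside gCtl. MGST2, a microsomal transferase, stood at 8.09 to 39.7 CPM in gCtl, with replicate 5 lowest, at 3.53 to 4.01 with g1, and at 13.98 and 3.78 with g2, a change of -2.23 (SE 0.43). DPEP1, a dipeptidase of glutathione breakdown, was low throughout, at 1.41 to 5.23 CPM in gCtl, 0.365 to 1.33 with g1, and 0 and 0.145 with g2. Of the 12 genes called lower, 4 were glutathione peroxidases, GPX1 (-1.78), GPX3 (-0.90), GPX4 (-1.25) and GPX7 (-1.93), while the intestinal peroxidase GPX2 was called higher (0.77).

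Of 14 genes that supply cysteine, 2 were called higher and 3 lower, with a median of -0.13. The subunits of the cystine importer parted. SLC7A11, its transport subunit, was 7.92 to 13.04 CPM in gCtl, 15.4 to 30.0 with g1, and 19.2 and 22.8 with g2, a rise of 0.98 (SE 0.22). SLC3A2, the heavy chain it shares with other amino acid carriers, was 79.5 to 126 CPM in gCtl, 42.0 to 56.7 with g1, and 47.0 and 59.3 with g2, a change of -1.06 (SE 0.15). The count ratio of the first to the second was 0.076 to 0.135 in gCtl and 0.286 to 0.528 in the libraries labelled knockdown. Both genes were called, in opposite directions, in these same libraries, so this contrast follows from their calls. AHCY, which hydrolyses S-adenosylhomocysteine, fell by 1.64 on the log2 scale (SE 0.30), with gCtl replicate 5 at 42.6 CPM and the other gCtl libraries at 91.4 to 142. MAT1A, the liver form of methionine adenosyltransferase, was 0.25 to 4.36 CPM in gCtl, 12.2 to 30.6 with g1, and 1.61 and 2.91 with g2.

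Of 18 genes of the thioredoxin and peroxiredoxin group, 1 was called higher and 6 lower, with a median of -0.22. All 6 genes called lower were peroxiredoxins, PRDX1 to PRDX6, a family of thiol peroxidases of which SRXN1 repairs some members. PRDX2 fell by 2.08 (SE 0.26) and PRDX5 by 1.31 (SE 0.25) on the log2 scale. Without gCtl replicate 5, the lowest of gCtl for both, 6 genes of the list were again called lower in the knockdown comparison. Without g2 replicate 2 it was 5. With g2 the median of the list was -0.62, and -0.165 without g2 replicate 2. TXNIP, the thioredoxin inhibitor, rose from 27.6 ± 7.43 CPM in gCtl (SD, n = 5) to 71.5 ± 13.1 with g1 (SD, n = 3) and 60.4 ± 13.01 with g2 (SD, n = 2). Of 12 genes of NADPH supply, none was called higher and 3 were called lower. PGD, a dehydrogenase of the pentose phosphate pathway, fell by 0.75 on the log2 scale (SE 0.19). DESeq2 also called none of them higher in the knockdown comparison, and 5 of the 12 had an unadjusted edgeR p under 0.05. Of 6 genes that remove superoxide and peroxide, edgeR and DESeq2 called none in either direction in the knockdown comparison, and 2 had an unadjusted p under 0.05 by each. With g2, both tools called 2 of the 6 lower, by edgeR SOD1, the cytosolic superoxide dismutase, at -0.60 (adjusted p = 0.00951) and PARK7 at -0.63 (adjusted p = 0.016). SOD1 was also called lower with g2 than with g1, at -0.69 (adjusted p = 0.0243 by edgeR). The median of the 6 genes with g2 was -0.27, and 0.03 without g2 replicate 2. By edgeR, the g2 calls of SOD1 and PARK7 and the SOD1 call between the guides depended on that library.

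Of 7 tested genes of heme breakdown and iron handling, 2 were called higher and 2 lower, with a median of 0.30. These counts were 1 and 1 without gCtl replicate 5, 0 and 1 without g2 replicate 2, and 0 and 2 with library totals alone. FTH1, the ferroxidase chain, was 733 to 1006 CPM in gCtl, 792 to 1050 with g1, and 2221 and 1606 with g2, a g2 difference of 1.195 (adjusted p = 0.000257 by edgeR). Its call in the knockdown comparison held in 12 of 25 alternatives. FTL was 149 to 359 CPM in gCtl, 85.9 to 106 with g1, and 124 and 44.5 with g2. The count ratio of FTH1 to FTL was 2.80 to 4.91 in gCtl, 8.53 to 11.9 with g1, and 18.0 and 36.1 with g2. Here too the genes of the pair were called in opposite directions in the knockdown comparison, so a wide contrast follows. Both ferritins have many processed pseudogenes, which could take or lend reads. ABCG2, a porphyrin exporter, was at 0.65 (adjusted p = 0.03 by edgeR), a call lost in 11 of 25 alternatives. It was at 0.33 with g1 (adjusted p = 0.21 by edgeR) and 1.03 with g2, called with g2 only. BLVRB, a biliverdin reductase, was at -0.78 (adjusted p = 0.0258 by edgeR), a call lost in 6 of 25, one of them without gCtl replicate 5. It too was called with g2 only, at -0.63 with g1 (adjusted p = 0.0959 by edgeR) and -1.03 with g2.

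**Figure D4:**
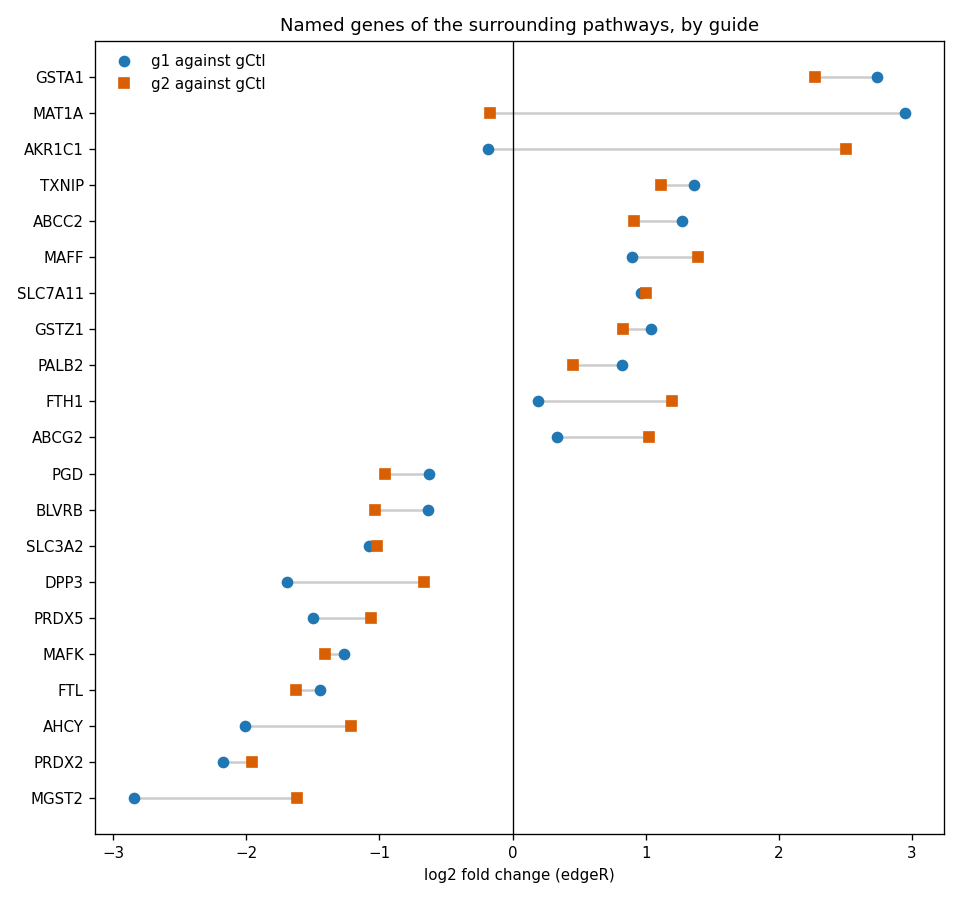
Log2 fold change against gCtl (x axis) with g1 (blue circles) and g2 (orange squares) for the named genes of the surrounding lists, ordered by their knockdown difference; DPEP1 is not drawn because its g2 libraries held 0 and 1 counts. The guides lie close together for GSTA1, SLC7A11, SLC3A2 and PRDX2, and far apart for AKR1C1 (-0.18 and 2.51) and MAT1A (2.95 and -0.17).

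**Figure D5:**
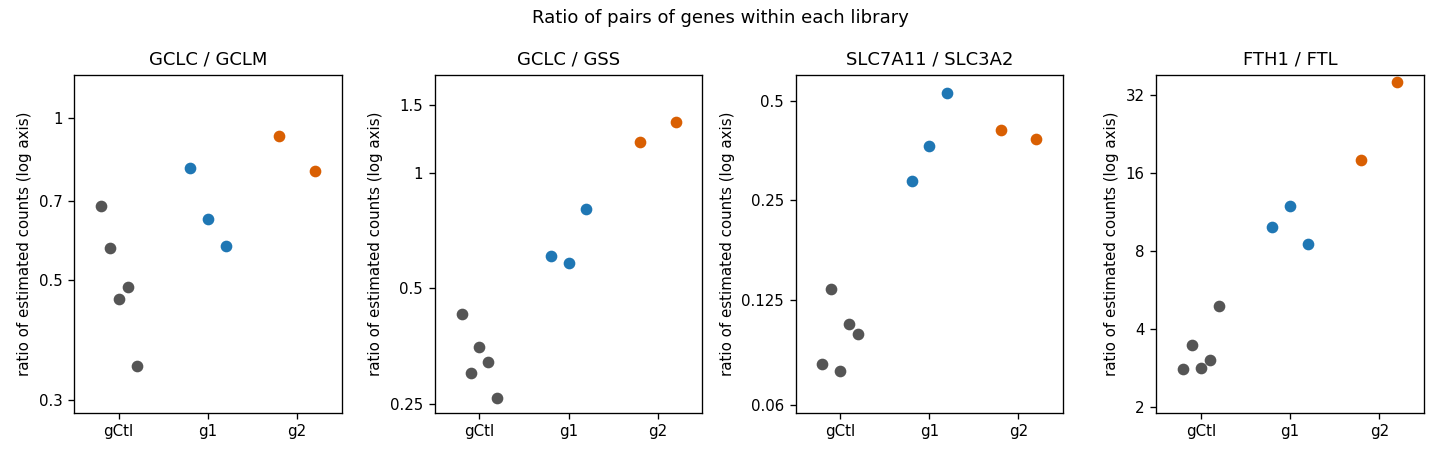
Ratio of the estimated counts of a pair of genes within each library (log axis), for GCLC to GCLM, GCLC to GSS, SLC7A11 to SLC3A2 and FTH1 to FTL, with 1 point per library. For the last 3 pairs all libraries labelled knockdown lie above all gCtl libraries, and for GCLC to GSS the g2 libraries (1.201 and 1.36) also lie above the g1 libraries. The genes of each of these pairs were called in opposite directions in these same libraries (GSS with g2 only), so the contrast follows from the choice of pair.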

How the data were processed

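RNA of 10 Caco-2 libraries was read by Lexogen QuantSeq 3′ tags. The authors deposited, per library, estimated counts per GENCODE v24 transcript from kallisto (version given as 42.5 in the submitters' processing notes). An estimated count shares reads between transcripts by a model, so it need not be whole and is unstable where transcripts share an end. Estimated counts were summed per gene identifier and rounded. Genes with a protein-coding transcript and over 3 RPM in at least 20% of libraries were kept (11640). Members and lists were chosen with earlier results of these data known. Libraries were grouped by the labels (gCtl 5, g1 3, g2 2), with the replicate numbers given in accession order and pairing nothing. TMM scaling and the quasi-likelihood test of edgeR 4.0.16 (R 4.3.3) were applied to knockdown against gCtl (2 groups) and to g1, g2 and gCtl in 1 fit with pooled spread. A gene was called where its p, adjusted by Benjamini-Hochberg over all tested genes, was 0.05 or less and a fold change of at least 1.5. Named were all members, from each list the 2 largest called increases and decreases in the knockdown comparison, and for each member the nearest profile, except for a gene that is not reported here; paralogs, overlapping genes, CUL3, BACH1, SQSTM1, PRDX1, PRDX3, PRDX4, PRDX6, SOD1, PARK7 and the GPX genes were added after seeing their values. DESeq2 1.42.0, limma 3.58.1, other scalings, filters, TPM and leaving out each library were alternatives. On simulated data with 200 of 11640 genes changed 3-fold in the knockdown comparison, edgeR called 98.5% of the changed genes and 9 others. These figures do not cover smaller changes, such as those of the members called, or the comparisons of single guides. Coordinates are from GENCODE v29 on GRCh38, the same genome as v24, and upstream sequences from RefSeq on GRCh38.p14.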

Additional observations from a re-analysis of the deposited data

Results flagged for a closer look

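Between the guides, 3 of the surrounding genes chosen by the naming rule differed by the test of the difference itself (edgeR quasi-likelihood test, adjusted over 11640 genes). AKR1C1 was higher with g2 than with g1 by 2.69 on the log2 scale (adjusted p = 0.000108), in 2 of 2 g2 libraries against 3 of 3 g1 libraries. FTH1 was higher with g2 by 1.003 (adjusted p = 0.00812). MAT1A was lower with g2, at -3.12 (adjusted p = 0.00722). Of the genes named after their values were seen, AKR1C2 was higher with g2 by 2.80 (adjusted p = 0.00131) and SOD1 lower, at -0.69 (adjusted p = 0.0243). The SOD1 call depended on g2 replicate 2.

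Of 66 groups of 5 libraries examined by Dixon's ratio, the gap of the extreme library to its nearest neighbour over the range, 4 exceeded the critical value of 0.71 for 5 libraries, and chance flags about 1 group in 20. MGST2 in g2 replicate 1 stood at 13.98 CPM against 3.53 to 4.01 in the other libraries labelled knockdown (ratio 0.954). PRDX2 in g1 replicate 1 stood at 2.33 CPM against 3.78 to 4.12 (ratio 0.807). PGD stood at 47.7 CPM in gCtl replicate 2 against 28.4 to 32.9 in the other gCtl libraries (ratio 0.769) and at 29.0 CPM in g1 replicate 1 against 17.0 to 19.4 in the other libraries labelled knockdown (ratio 0.799).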

How the results depend on the processing

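No paired analysis was possible because the labels carry no replicate numbers. GCLC had the same sign in 25 of 25 alternatives in each comparison, with a knockdown call in 24 of 25. Under the test against a 1.5-fold threshold (glmTreat), genes called were 488 for knockdown (2232 as reported), 506 for g1 (1947), 802 for g2 (2756) and 92 between the guides (579), and members called were 0, 0 and 1 for knockdown, g1 and g2. With no fold minimum, members called were 4 for knockdown and 2 for g1. With a trend on transcript length removed they were 2, 2 and 3 for knockdown, g1 and g2. Between the guides it was 1, as with DESeq2 (1). NFE2L2 with g2 and TXNRD1 with g1, not called as reported, were each called in 6 of 25 alternatives. On TPM with either pseudocount, GSS was the only member called with g2 and TXNRD1 the only one with g1. Leaving out each library in turn, genes called ran from 1249 to 2260 for g1 (lowest without g1 replicate 3), 1501 to 3114 for g2 (lowest without g2 replicate 2) and 267 to 858 between the guides (267 without g1 replicate 1, 314 without g1 replicate 2), and members called from 0 to 2 for g1, 2 to 4 for g2 and 0 to 1 between the guides. The sign turned, when single libraries were left out, for GSR (-0.023 to 0.36 for knockdown, -0.28 to 0.11 for g1, -0.015 to 0.99 for g2), NQO1 (-0.20 to 0.025 for knockdown), GCLM between the guides (-0.10 to 0.41) and SRXN1 as listed (-1.15 to 0.0052, -7.09 to 0.15 and -7.17 to 0.87 for knockdown, g1 and g2, and -6.77 to 6.91 between the guides). With ENSG00000270299 added, SRXN1 was 0.40, 0.24 and 0.61. NQO1 was 0.052 for knockdown with the length trend removed. KEAP1 with g2 was -0.0047 with library totals alone and -0.15 and -0.16 on TPM (pseudocounts 1 and 0.1). NFE2L2 between the guides was -0.16 on TPM. The cause was not tested in these cases. Library totals alone moved the median of all genes with g2 to -0.16 and between the guides to -0.10, and the share of called genes that were lower from 57.5% to 69.4% for knockdown, from 54.9% to 73.3% for g2 and from 68.7% to 83.4% between the guides. LHFPL3-AS2 was at 0.29 to 0.73 in 12 alternatives and higher in the libraries labelled knockdown in each. Depth limited HMOX1, SRXN1, DPEP1 and the targeted RNA LHFPL3-AS2.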
